A study of Mus musculus with 15 samples.

Results

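The Toll-like receptor genes and the genes of the lipopolysaccharide (LPS) co-receptors were followed in the BV2 cell line. The genes were taken by symbol: *Tlr1*, *Tlr2*, *Tlr3*, *Tlr4*, *Tlr6*, *Tlr7*, *Tlr8*, *Tlr9*, *Cd14* and *Ly96*. These are 10 of the 54390 genes in the count tables, and all 10 were found. BV2 is an immortalized mouse microglial line that grows in culture and is used as a macrophage model. RNA was sequenced from 15 libraries of WT or Trem2-/- BV2 cells that received either soluble cholesterol at 20 μg ml-1 overnight (foamy) or media alone (non-foamy). Non-foamy libraries numbered 4 for the WT and 3 for the Trem2-/- line, and foamy libraries 4 for each line. The Trem2-/- line was made from BV2 cells carrying Cas9, themselves grown from a single clone, with a guide RNA against *Trem2* and limiting dilution. How many knockout clones were sequenced, and whether the WT cells carried Cas9, is not given in the sources used here, so genotype and clonal origin cannot be told apart in any comparison of the lines. By the labels, no group received LPS or another Toll-like receptor ligand.

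Toll-like receptors recognize conserved molecules of microbes and, in some cases, of damaged cells. TLR1, TLR2, TLR4 and TLR6 sit at the cell surface, where TLR2 pairs with TLR1 or TLR6 to bind lipopeptides and TLR4 binds LPS. TLR4 does this together with MD-2, the product of *Ly96*, and CD14 hands LPS to that complex and also helps other receptors. TLR3, TLR7, TLR8 and TLR9 sit in endosomes and bind nucleic acids, namely double-stranded RNA (TLR3), single-stranded RNA and its breakdown products (TLR7 and TLR8) and unmethylated CpG DNA (TLR9). Most of these receptors signal through the adaptor MyD88 to NF-κB, TLR3 signals through TRIF (*Ticam1*), and TLR4 uses both. Microglia and other macrophages are among the main cells that express them.

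The libraries held between 23538963 and 41683825 counted reads. Levels are given as CPM, the count of a gene scaled to a common library size with factors from the trimmed mean of M values (TMM), and log2 fold changes come from 1 edgeR model of all 15 libraries. A gene was called at a Benjamini-Hochberg adjusted p under 0.05, with 14237 genes in the adjustment, and all 10 receptor genes passed the filter on low counts. In the WT line *Trem2* itself was at 354 ± 41.2 CPM (mean ± s.d.) without and 373 ± 26.4 CPM with cholesterol (n = 4 each). In the Trem2-/- line it was at 222 ± 8.79 CPM without (n = 3) and 224 ± 4.56 CPM with cholesterol (n = 4). Every Trem2-/- library was below every WT library, but the transcript was not absent, so RNA shows the labelled genotype only as a lower level. The paper reports loss of Trem2 protein in its Trem2-/- BV2 cells by flow cytometry, after soluble cholesterol. Of 12 microglia and macrophage markers, 10 exceeded 1 CPM in at least 1 library, among them *Cd68* and *Csf1r*, whereas *Sall1*, which defines brain microglia, had no count in any library and *Tmem119* stayed at or below 0.728 CPM. *P2ry12* and *Cx3cr1*, both microglial markers, passed 1 CPM in WT libraries but reached at most 0.928 and 0.696 CPM in Trem2-/- ones. The summed level of that list was 2473 to 2925 CPM in WT and 3475 to 3734 CPM in Trem2-/- libraries, a shift that ran alongside each difference between the lines below and whose part in them was not tested. Of the endothelial list, *Vwf* and *Kdr* exceeded 1 CPM, while all 4 fibroblast markers had no count. In bulk RNA, fewer cells expressing a gene and less RNA per cell cannot be told apart. Nothing states that the libraries of a group came from separate cultures, so the p-values measure only the spread between these libraries.

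Counted per kilobase (kb) of exon, the receptor genes covered a wide range of levels. *Cd14* was the most abundant at 52.1 CPM per kb over all libraries, and with *Tlr7* at 46.9 CPM per kb it made up most of the summed level of the 10 genes (31.3% and 28.3%). *Tlr4* (23.9 CPM per kb), *Tlr2* (17.6) and *Ly96* (17.0) followed, then *Tlr6* (4.30) and *Tlr1* (2.71). *Tlr9* at 1.09, *Tlr8* at 0.382 and *Tlr3* at 0.102 CPM per kb were at the bottom. The order of the surface receptors was therefore *Tlr4*, *Tlr2*, *Tlr6* and *Tlr1*, and that of the endosomal receptors *Tlr7*, *Tlr9*, *Tlr8* and *Tlr3*. In WT non-foamy cells *Tlr8* lay below *Tlr3* (0.0231 ± 0.0186 against 0.120 ± 0.0342 CPM per kb, n = 4), and in Trem2-/- foamy cells it lay above it (0.922 ± 0.0941 against 0.0925 ± 0.0266, n = 4). The order of the abundant genes also differed between the lines. In Trem2-/- cells *Tlr7* lay above *Cd14*, at 50.77 against 37.09 CPM per kb in non-foamy and 55.94 against 43.73 in foamy cells. *Ly96* lay above *Tlr2* in the same groups, at 23.29 against 17.93 and 21.02 against 16.89 CPM per kb. In WT cells both orders were the other way in each state.

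**Figure D1:**
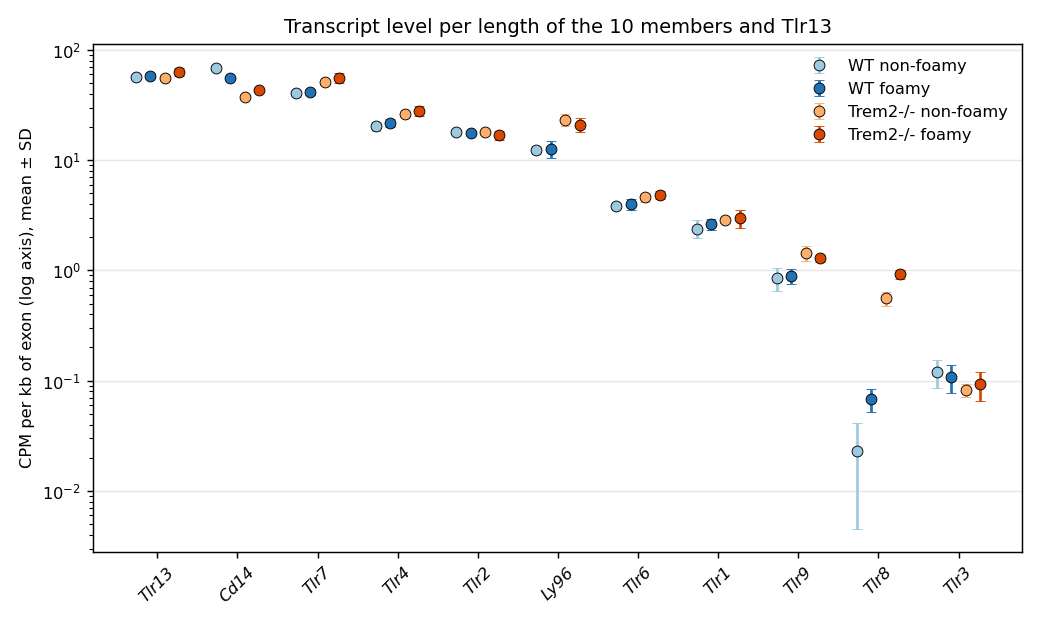
Level of the 10 receptor genes and of *Tlr13* in CPM per kb of exon on a log axis; points are group means, bars are s.d. (n = 4, 4, 3 and 4), and colours mark the 4 groups. *Tlr8* is the only one of the 10 whose group means spread over more than a factor of 10, from 0.0231 to 0.922 CPM per kb.

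Cholesterol loading changed 1 of the 10 genes in WT cells, *Cd14*, which fell, beside 2.8% of all genes tested. In Trem2-/- cells it changed 0 of 10 by edgeR, beside 0.14% of all genes; by unadjusted p under 0.05, 2 of 10 passed (*Cd14* and *Tlr8*), beside 6.45% of all genes. DESeq2 called 1 of 10 (*Cd14*), beside 0.526% of the 10647 genes to which it gave an adjusted p. The libraries of the groups did not overlap for 2 of 10 genes in each response, again *Cd14* and *Tlr8*, beside 9.71% of all genes in WT and 9.26% in Trem2-/- cells. In non-foamy cells, 6 of 10 genes differed between the lines, beside 43.6% of all genes. Of these, 5 were higher in Trem2-/- cells (*Tlr4*, *Tlr7*, *Tlr8*, *Tlr9* and *Ly96*; 21% of all genes were higher) and 1, *Cd14*, was lower (22.6% of all genes were lower). In foamy cells 7 of 10 differed, beside 30.2% of all genes, with 6 higher (*Tlr4*, *Tlr6*, *Tlr7*, *Tlr8*, *Tlr9* and *Ly96*; 14.3% of all genes were higher) and *Cd14* lower (15.9% were lower). The libraries of the 2 lines did not overlap for 7 of 10 genes in each state, beside 46.1% of all genes in non-foamy and 28.8% in foamy cells. The difference between the 2 responses was called for 1 of 10, *Cd14*, beside 3.64% of all genes. The median log2 fold change of the 10 genes between the lines was 0.30 in non-foamy and 0.31 in foamy cells, against 0.02 and 0.00 over all genes tested, and for the responses it was 0.04 in WT and 0.07 in Trem2-/- cells. Without scaling factors (total counts alone) the median of all genes between the lines moved to −0.13 in both states and that of the 10 genes to 0.16 and 0.18; 5 of the 10 were then higher and 1 lower in non-foamy cells (12.8% and 30.8% of all genes), and 4 higher and 2 lower in foamy cells (7.83% and 25.7% of all genes).

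**Figure D2:**
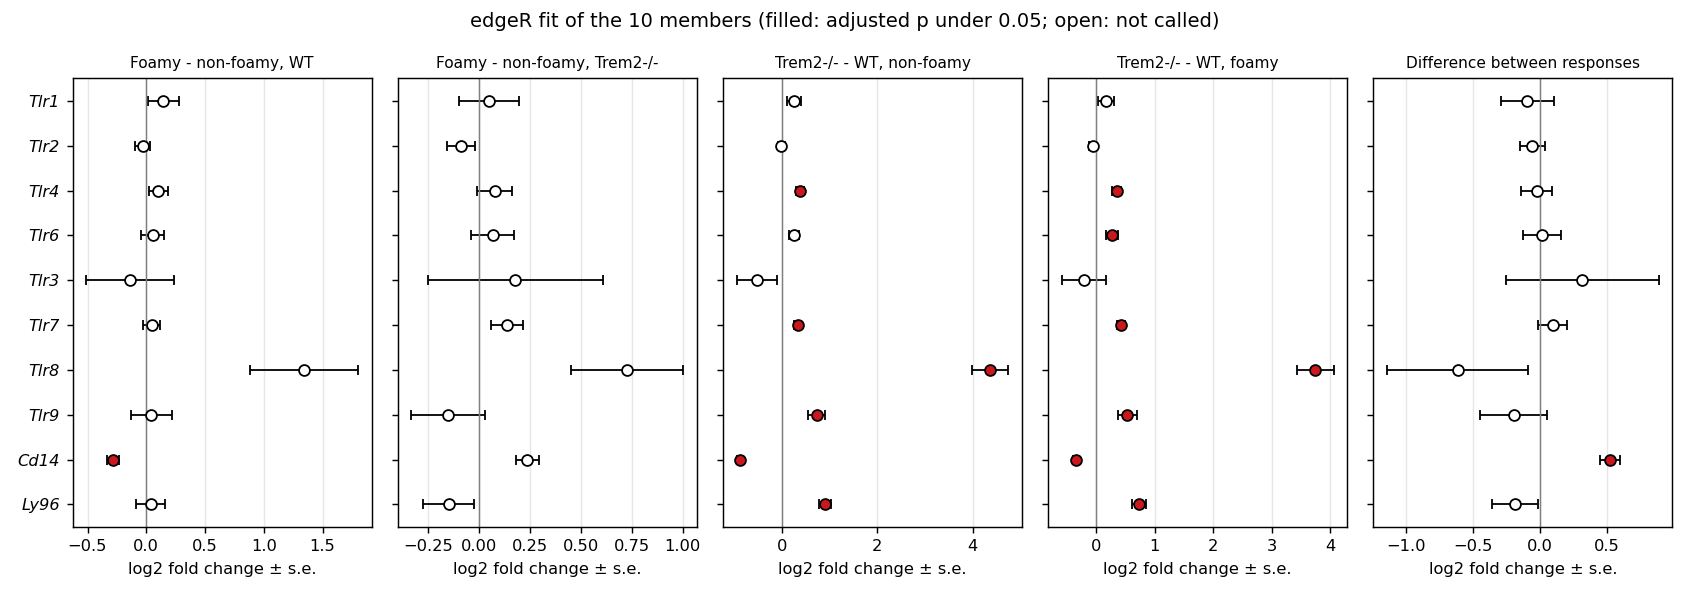
Fitted log2 fold changes of the 10 genes in the 5 comparisons; bars are s.e. of the edgeR fit, filled points have an adjusted p under 0.05, and the horizontal scale differs between panels. *Cd14* is the only filled point in the WT response and in the difference between the responses, and *Tlr8* has the longest distance from 0 in both comparisons of the lines.

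*Cd14* encodes the LPS-binding co-receptor that lacks a signalling domain of its own (chr18:36725067-36726798, minus strand, GRCm38). Its level was 118, 116, 122 and 115 CPM in the WT non-foamy libraries and 97.5, 96.4, 97.6 and 94.6 CPM in the WT foamy ones. It was 64.2, 64.1 and 64.4 CPM in Trem2-/- non-foamy and 79.3, 73.7, 75.2 and 74.9 CPM in Trem2-/- foamy libraries. The 4 groups did not overlap at any step of the order WT non-foamy, WT foamy, Trem2-/- foamy, Trem2-/- non-foamy. With cholesterol, *Cd14* fell by 0.29 on the log2 scale in WT cells (s.e. 0.0511, adjusted p = 0.00284). In Trem2-/- cells the fitted change was 0.24 in the other direction, with all 4 foamy libraries above all 3 non-foamy ones (s.e. 0.0562, unadjusted p = 0.000335, adjusted p = 0.169 by edgeR; adjusted p = 0.00256 by DESeq2). The change in Trem2-/- cells exceeded that in WT cells by 0.52 on the log2 scale (s.e. 0.0760, 95% interval 0.37 to 0.67, adjusted p = 0.000296). *Cd14* was 1.83-fold lower in Trem2-/- than in WT non-foamy cells (−0.87 on the log2 scale, s.e. 0.0567, adjusted p = 5.42e-11) and 1.27-fold lower in foamy cells (−0.35, s.e. 0.0514, adjusted p = 1.93e-05). The gap between the lines was therefore smaller in foamy than in non-foamy cells.

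*Tlr4* encodes the signalling receptor for LPS (chr4:66827584-66930284, plus strand). It was at 114, 101, 126 and 110.2 CPM in WT non-foamy, 108, 121, 135 and 121 in WT foamy, 150.4, 148 and 141 in Trem2-/- non-foamy and 151, 143, 147 and 179 CPM in Trem2-/- foamy libraries. All 7 Trem2-/- libraries were above all 8 WT libraries, and within each line foamy and non-foamy libraries overlapped. *Tlr4* was 1.30-fold higher in Trem2-/- non-foamy cells (0.38 on the log2 scale, s.e. 0.0848, adjusted p = 0.000859) and 1.28-fold higher in Trem2-/- foamy cells (0.35, s.e. 0.0787, adjusted p = 0.00148).

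*Ly96* encodes MD-2, the secreted partner that binds LPS inside the TLR4 complex (chr1:16688051-16709611, plus strand). Its level was 12.2, 12, 14.1 and 12.2 CPM in WT non-foamy and 10.2, 12.2, 14.6 and 15 CPM in WT foamy libraries. It was 23.9, 26.6 and 20.9 CPM in Trem2-/- non-foamy and 22.3, 18.3, 20.1 and 25.2 CPM in Trem2-/- foamy libraries. The lines did not overlap, and the states did within each line. *Ly96* was 1.88-fold higher in Trem2-/- non-foamy cells (0.91 on the log2 scale, s.e. 0.128, adjusted p = 4e-06) and 1.65-fold higher in Trem2-/- foamy cells (0.73, s.e. 0.119, adjusted p = 6.75e-05).

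The transcripts of the 3 parts of the LPS receptor therefore stood in different proportions in the 2 lines. Protein was not measured in these libraries. Per kb of exon, the level of *Cd14* was 3.36 ± 0.233 times that of *Tlr4* in the WT line without and 2.57 ± 0.242 times with cholesterol (n = 4 each), against 1.41 ± 0.0485 (n = 3) and 1.58 ± 0.158 times (n = 4) in the Trem2-/- line. The ratio of *Ly96* to *Tlr4*, which form the ligand-binding unit, was 0.612 ± 0.0283 and 0.581 ± 0.0688 in WT non-foamy and foamy libraries and 0.881 ± 0.0882 and 0.753 ± 0.0446 in the Trem2-/- ones. The ratio of *Ly96* to *Cd14* was 0.182 ± 0.00921 in WT non-foamy and 0.628 ± 0.0774 in Trem2-/- non-foamy libraries, against 0.229 ± 0.0412 and 0.481 ± 0.0638 in the foamy libraries of the same lines. Every ratio of *Cd14* to *Tlr4* in WT libraries (lowest 2.32) exceeded every one in Trem2-/- libraries (highest 1.69). These ratios rest on the same counts as the tests above and were not tested again.

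**Figure D3:**
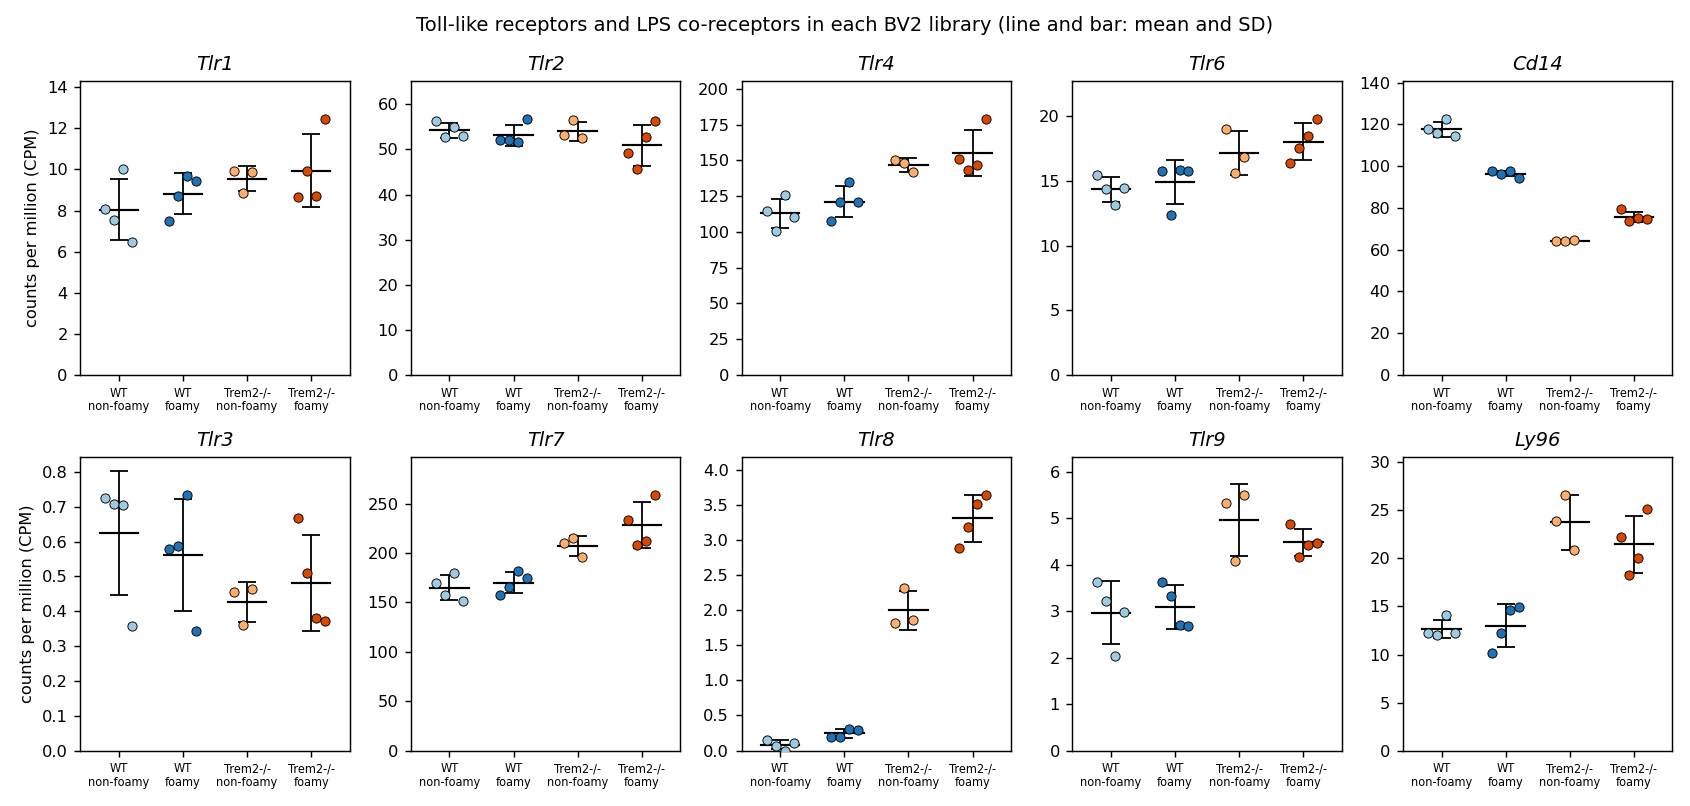
CPM of each of the 10 genes in every library; each point is a library, the line and bar are the mean and s.d. of its group, and each panel has its own vertical axis from 0. *Cd14* and *Tlr8* separate all 4 groups, *Tlr4*, *Tlr7*, *Tlr9* and *Ly96* separate the lines, and *Tlr1*, *Tlr2*, *Tlr3* and *Tlr6* overlap between all groups next to each other in the order of their means. For *Tlr6* the lines are nevertheless apart within each state.

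*Tlr2* encodes the shared subunit of the lipopeptide receptors (chr3:83836272-83841767, minus strand), and its group means spanned the smallest range of the 10, 1.07-fold from highest to lowest. The group means were 54.3 ± 1.64 CPM in WT non-foamy, 53.1 ± 2.36 in WT foamy, 54.0 ± 2.10 in Trem2-/- non-foamy (n = 3) and 50.9 ± 4.57 CPM in Trem2-/- foamy libraries (n = 4 elsewhere). It was called in none of the comparisons by edgeR or DESeq2, and the 95% intervals were narrow, from −0.14 to 0.13 between the lines without cholesterol and from −0.19 to 0.06 with it. With total counts alone it was called lower in Trem2-/- foamy cells (log2 fold change −0.19, adjusted p = 0.0266), where the median of all genes was −0.13.

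*Tlr1* and *Tlr6*, the partners of TLR2, are neighbours on chromosome 5 (chr5:64924679-64933563 and chr5:64952031-64960097, both minus strand) and share sequence. Of the stretches of 50 bases in their annotated exons, 13.6% of those of *Tlr1* also occur in *Tlr6* and 12.3% of those of *Tlr6* in *Tlr1*. With any other gene, on either strand, the share was 15.4% for *Tlr1* (307 genes) and 12.3% for *Tlr6* (2 genes). How the counting treated reads that match more than 1 gene is not stated. The counts of the pair, and their split between *Tlr1* and *Tlr6*, are therefore uncertain in these stretches. The longest stretch they share is 229 bases of coding exon, at chr5:64925537-64925765 in *Tlr1* and chr5:64953828-64954056 in *Tlr6* (GRCm38, GENCODE M21 transcripts, minus strand). It is shown because a read inside it cannot be placed on either gene.
Tlr1 and Tlr6 shared stretch: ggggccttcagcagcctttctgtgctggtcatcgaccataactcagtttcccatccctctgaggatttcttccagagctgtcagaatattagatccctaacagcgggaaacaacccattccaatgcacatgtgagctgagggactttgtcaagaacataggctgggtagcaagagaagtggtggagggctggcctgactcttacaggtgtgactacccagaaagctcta

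*Tlr6* was at 15.4, 14.4, 13.1 and 14.5 CPM in WT non-foamy, 15.7, 12.4, 15.8 and 15.8 in WT foamy, 19.0, 15.6 and 16.9 in Trem2-/- non-foamy and 16.4, 17.5, 18.4 and 19.8 CPM in Trem2-/- foamy libraries. In each state the Trem2-/- libraries lay above the WT ones. In foamy cells *Tlr6* was called, 1.21-fold higher (0.27 on the log2 scale, s.e. 0.0967, adjusted p = 0.0370), and the call was lost without WT foamy replicate 2 (adjusted p = 0.150), Trem2-/- foamy replicate 3 (0.0757) or Trem2-/- foamy replicate 4 (0.108). It was also lost with total counts alone (0.14 on the log2 scale, adjusted p = 0.333) and with no filter on low counts (0.26, adjusted p = 0.0664). In non-foamy cells it missed the threshold (0.26, s.e. 0.105, adjusted p = 0.0519) and passed it by DESeq2 (adjusted p = 0.0443) or without WT non-foamy replicate 1 (0.0454) or Trem2-/- non-foamy replicate 2 (0.0364). *Tlr1* ranged from 6.49 to 12.4 CPM over all libraries, with group means of 8.03 ± 1.49, 8.82 ± 0.983, 9.55 ± 0.616 and 9.93 ± 1.77 CPM in the order WT non-foamy and foamy, then Trem2-/- non-foamy and foamy. All neighbouring groups overlapped, and no comparison was called. Between the lines without cholesterol its log2 fold change was 0.26 (95% interval −0.02 to 0.55), and it was called without WT non-foamy replicate 3, the shallowest library (0.38, adjusted p = 0.0324).

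*Tlr7* encodes the endosomal receptor for single-stranded RNA (chrX:167304929-167330558, minus strand). It was at 169.8, 158, 180.0 and 152 CPM in WT non-foamy, 157, 166, 182 and 175 in WT foamy, 209.9, 216 and 196 in Trem2-/- non-foamy and 234, 208, 213 and 259 CPM in Trem2-/- foamy libraries. Every Trem2-/- library was above every WT library, and states overlapped within each line. *Tlr7* was 1.26-fold higher in Trem2-/- non-foamy cells (0.33 on the log2 scale, s.e. 0.0784, adjusted p = 0.00147) and 1.34-fold higher in Trem2-/- foamy cells (0.43, s.e. 0.0729, adjusted p = 0.000112).

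*Tlr8*, next to *Tlr7* on the X chromosome (chrX:167242696-167264329, minus strand), encodes a related RNA-binding receptor and had the largest change of the 10 between the lines. It had 6, 2, 0 and 5 counts in the WT non-foamy libraries and 8, 8, 10 and 10 in the WT foamy ones, against 64, 64 and 56 in Trem2-/- non-foamy and 104, 100, 111 and 98 in Trem2-/- foamy libraries. In CPM these were 0.156, 0.0644, 0 and 0.112, then 0.193, 0.196, 0.306 and 0.286, then 1.82, 2.31 and 1.85, then 2.89, 3.18, 3.51 and 3.64. The 4 groups did not overlap, in the order WT non-foamy and foamy, then Trem2-/- non-foamy and foamy. The count of 0 in WT non-foamy replicate 3 allows a level of up to 0.132 CPM (3 counts), for counting error only and with each count a separate fragment. If both reads of a pair were counted, the limit is higher. The fitted fold change between the lines was 20.6 in non-foamy (4.36 on the log2 scale, s.e. 0.384, adjusted p = 5.19e-09) and 13.5 in foamy cells (3.75, s.e. 0.311, adjusted p = 6.77e-09). The foamy libraries were above the non-foamy ones in both lines, but neither response passed the adjusted threshold (WT, 1.34, s.e. 0.461, adjusted p = 0.123; Trem2-/-, 0.73, s.e. 0.275, adjusted p = 0.687). The difference between those responses was −0.61 (95% interval −1.65 to 0.42). Of all counts between 1 and 20, 81.4% were even, against 50.4% of counts of 1000 or more, and *Tlr8* was even in 12 of its 14 libraries with a count. Counting both reads of a pair gives even counts, so a low count may stand for fewer fragments than its number. With all counts divided by 2 and rounded up, an alternative chosen after seeing the data, both calls of *Tlr8* between the lines stayed.

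*Tlr9* encodes the receptor for CpG DNA (chr9:106222598-106226883, plus strand). It was at 3.63, 3.22, 2.02 and 2.99 CPM in WT non-foamy, 3.62, 3.33, 2.69 and 2.69 in WT foamy, 5.33, 4.08 and 5.50 in Trem2-/- non-foamy and 4.86, 4.17, 4.43 and 4.46 CPM in Trem2-/- foamy libraries. The lines did not overlap and the states did. *Tlr9* was 1.66-fold higher in Trem2-/- non-foamy cells (0.73 on the log2 scale, s.e. 0.182, adjusted p = 0.00231) and 1.45-fold higher in Trem2-/- foamy cells (0.53, s.e. 0.169, adjusted p = 0.0195). The latter call was lost without WT foamy replicate 3 (adjusted p = 0.0577), WT foamy replicate 4 (0.0621) or Trem2-/- foamy replicate 1 (0.0557), and with total counts alone (0.107).

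The sequences just before the annotated starts of *Tlr8* and *Tlr9* are shown because these genes had the largest log2 differences between the lines among the Toll-like receptors. They are the 250 bases upstream of the RefSeq start on GRCm38.p6, at chrX:167264330-167264579 (minus strand) and chr9:106222348-106222597 (plus strand), and hold no annotated exon of the gene. Such a window was found for 6 of the 10 genes. Capitals mark GAGGAA or its reverse complement, the core of the site of PU.1, a transcription factor of the macrophage lineage.
Tlr8: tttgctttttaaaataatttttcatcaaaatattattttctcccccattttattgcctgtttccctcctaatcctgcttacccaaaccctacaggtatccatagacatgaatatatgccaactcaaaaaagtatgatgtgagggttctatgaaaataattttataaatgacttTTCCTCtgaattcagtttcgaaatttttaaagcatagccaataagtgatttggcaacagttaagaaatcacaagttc
Tlr9: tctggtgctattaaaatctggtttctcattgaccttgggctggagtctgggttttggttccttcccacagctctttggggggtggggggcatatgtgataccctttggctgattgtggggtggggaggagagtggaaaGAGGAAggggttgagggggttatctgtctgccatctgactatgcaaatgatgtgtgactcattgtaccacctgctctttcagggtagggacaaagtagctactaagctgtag

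Each of the 2 windows holds 1 such match, beginning 77 bases before the start in *Tlr8* and 112 bases before it in *Tlr9*. On either strand, these letters occur in 23.3% of the 32851 windows of this length, so a match is common. Neither window holds the NF-κB pattern of GGG, any 5 bases and CC (45.8% of windows) or the interferon response pattern of GAAA, any 2 bases and GAAA (2.98% of windows). A match or its absence describes the letters of the window and says nothing about binding.

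*Tlr3*, the receptor for double-stranded RNA (chr8:45395665-45411080, minus strand), was barely detected. It ranged from 10 to 28 counts, or 0.343 to 0.734 CPM, and its counts were even in all 15 libraries. An antisense gene overlaps 7.32% of its exonic bases. The group means, from 0.427 ± 0.0572 CPM (n = 3) in Trem2-/- non-foamy to 0.624 ± 0.178 CPM (n = 4) in WT non-foamy libraries, overlapped. No difference was detectable at this depth, where the log2 fold change between the non-foamy lines had a 95% interval from −1.35 to 0.31.

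Among the other Toll-like receptors, *Tlr13*, which binds bacterial ribosomal RNA in endosomes, exceeded each of the 8 listed receptors. It was at 247 ± 11.6 CPM in WT non-foamy, 252 ± 14.0 in WT foamy, 240.5 ± 11.9 in Trem2-/- non-foamy (n = 3) and 273 ± 21.2 CPM in Trem2-/- foamy libraries (n = 4 elsewhere). Per kb this was 55.9 to 63.4 CPM, and no comparison was called. *Tlr5*, the flagellin receptor, stayed near the detection limit, with group means from 0.455 to 0.657 CPM. *Tlr11* had no count in any library, and *Tlr12* was too low to be tested.

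The genes that deliver, fold and relay the receptors were read from a list of 50 genes outside the 10, of which 45 were tested. Between the lines 22 of the 45 differed in non-foamy cells (16 higher and 6 lower in Trem2-/-) and 14 in foamy cells (9 higher and 5 lower), beside the 43.6% and 30.2% of all genes given above. The median log2 fold change of the list was 0.10 and 0.00. Cholesterol changed 1 of the 45 in WT and 1 in Trem2-/- cells, beside 2.8% and 0.14% of all genes. The responses differed for 3 of the 45, beside 3.64% of all genes.

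Of 7 tested accessory and trafficking genes, 3 were higher and 1 lower in Trem2-/- non-foamy cells, and 4 were higher in foamy cells. Over all genes, 21% were higher and 22.6% lower in non-foamy cells, and 14.3% and 15.9% in foamy cells. *Ly86* encodes MD-1, which pairs with the TLR4-like protein RP105 (*Cd180*). It was higher in Trem2-/- cells in both states (log2 fold change 0.67 and 0.46, adjusted p = 6.74e-06 and 0.000479), while *Cd180* itself was not called. *Unc93b1*, the chaperone that carries the endosomal receptors to their compartment, was higher as well (0.41 and 0.29, adjusted p = 0.000175 and 0.00403). *Slc15a4*, an endolysosomal transporter needed for TLR7 and TLR9 signalling, was higher by 0.35 and 0.32. *Hsp90b1*, the chaperone gp96 that folds most Toll-like receptors, was lower in non-foamy cells (−0.36, adjusted p = 0.000248). Other annotated genes overlap 15.7% of the exonic bases of *Hsp90b1* and 8.04% of those of *Slc15a4*. *Cd36*, a scavenger receptor that assists TLR2 with TLR6, was at 17.2, 16 and 15.6 CPM in Trem2-/- non-foamy and 24.8, 27.8, 22.8 and 28 CPM in Trem2-/- foamy libraries. In the WT libraries *Cd36* was at 16.5 to 18 CPM without and 12.2 to 15.8 CPM with cholesterol. It thus rose with cholesterol in Trem2-/- cells (0.67 on the log2 scale, s.e. 0.10, adjusted p = 0.00167), and the responses differed by 0.99 (s.e. 0.136, adjusted p = 0.000141).

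Of 6 tested adaptors, 2 were higher and 1 lower in Trem2-/- cells in each state. Of all genes, 43.6% were called in non-foamy and 30.2% in foamy cells. *Myd88*, used by all of these receptors except TLR3, was lower in Trem2-/- cells by a log2 fold change of −0.57 in non-foamy and −0.33 in foamy cells (adjusted p = 4.46e-06 and 0.00145). *Ticam1*, encoding TRIF, was higher (0.75 and 0.37, adjusted p = 3.64e-06 and 0.0054), and so was *Ticam2*, encoding the TRAM bridge between TLR4 and TRIF (0.55 and 0.58, adjusted p = 0.000127 and 6.46e-05). Other genes overlap 14.5% of the exonic bases of *Ticam2* (*Tmed7*) and 11.3% of those of *Myd88* (*Acaa1a*, antisense), so reads there may be shared. *Tirap*, *Sarm1* and *Pik3ap1* were called in no comparison.

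Of 17 kinases and ubiquitin enzymes downstream, 7 were higher and 2 lower in Trem2-/- non-foamy cells, beside 43.6% of all genes called. In foamy cells 3 were higher and 2 lower, beside 30.2% of all genes called. *Traf6*, the ubiquitin ligase of the MyD88 branch, was higher in both states (0.40 and 0.45), and *Traf3*, which links the receptors to interferon signalling, was lower in both (−0.55 and −0.37). *Irak2*, a kinase-like member of the MyD88 complex, was at 25.8 to 31.3 CPM in WT non-foamy, 31.0 to 39.0 in WT foamy, 44.2 to 51.0 in Trem2-/- non-foamy and 42.5 to 44.6 CPM in Trem2-/- foamy libraries. It was higher in Trem2-/- cells (0.77 and 0.33, adjusted p = 1.51e-07 and 0.00274) and was the single gene of the 45 called in the WT response (0.29, adjusted p = 0.0492). An antisense gene overlaps 4.44% of its exonic bases. The call in the WT response held in 3 of 8 fits with a library left out.

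Of 6 transcription factors, 3 were called in non-foamy and 1 in foamy cells, beside 43.6% and 30.2% of all genes. *Rela* and *Rel*, subunits of NF-κB, were higher in Trem2-/- non-foamy cells (0.28 and 0.37) and *Irf3*, the factor of the TRIF branch, was lower (−0.31). In foamy cells *Nfkb1* alone was called, lower (−0.28, adjusted p = 0.0246). *Irf5* and *Irf7* were not called. An antisense gene overlaps 2.56% of the exonic bases of *Irf3*. Of 7 tested inhibitors, 2 were higher and 1 lower in Trem2-/- non-foamy cells, beside 43.6% of all genes called. *Tnfaip3*, encoding the ubiquitin-editing enzyme A20, was among the former (0.46, adjusted p = 0.00108), and *Il1rl1*, encoding the IL-33 receptor ST2, was the lower one (−0.81, adjusted p = 2.8e-07) and stayed lower in foamy cells (−0.48, adjusted p = 0.000179). The responses of *Irak2* and *Tnfaip3* to cholesterol differed between the lines by −0.44 and −0.53 (adjusted p = 0.0372 and 0.0416), and each call held in 5 of 15 fits with a library left out, whereas that of *Cd36* held in all 15.

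**Figure D4:**
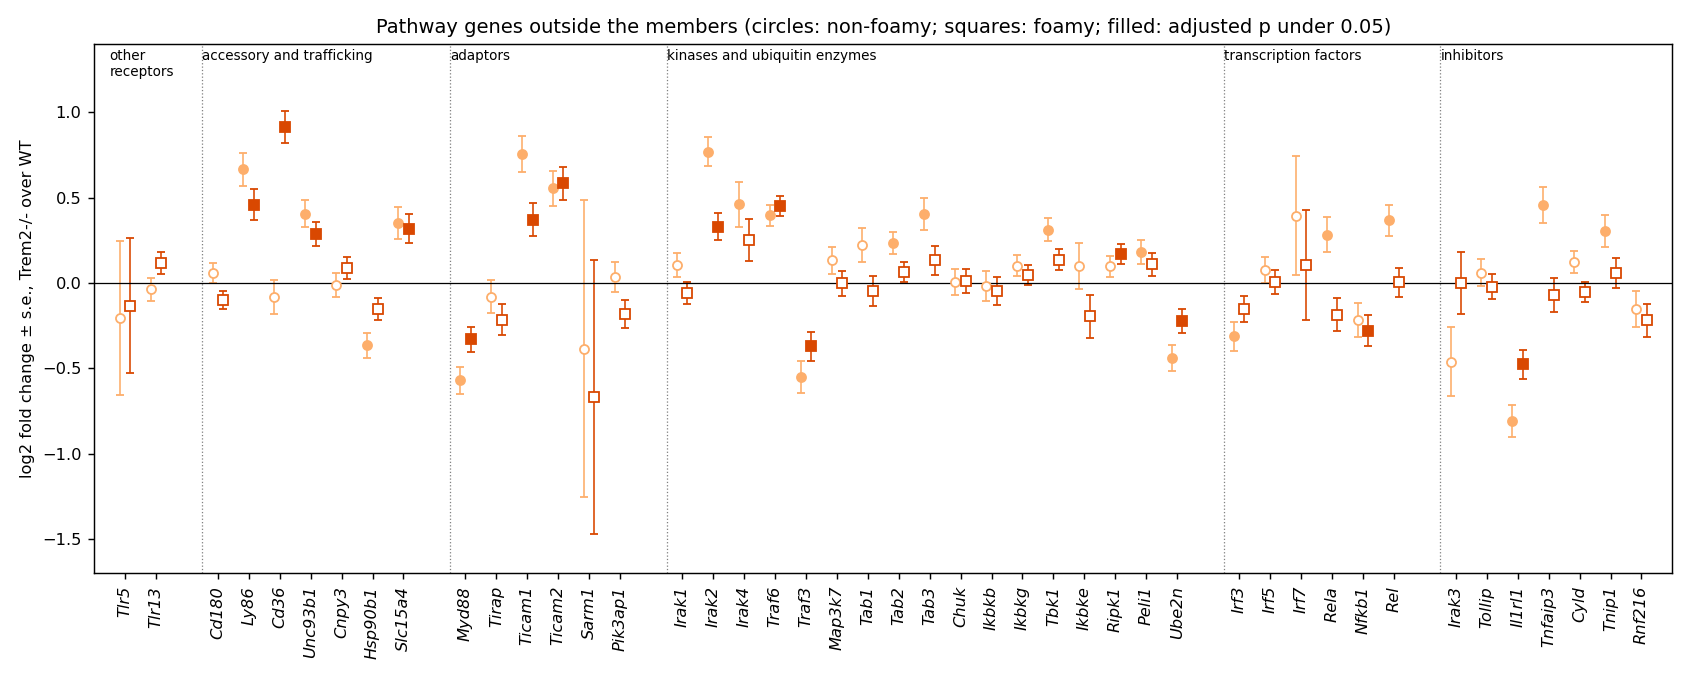
Log2 fold change of Trem2-/- over WT for the 45 tested pathway genes outside the 10 receptor genes; circles are non-foamy and squares foamy cells, bars are s.e. of the edgeR fit, filled symbols have an adjusted p under 0.05, and dotted lines separate the lists. *Myd88* and *Traf3* lie below 0 and *Ticam1*, *Ticam2*, *Ly86* and *Traf6* above 0 in both states, and *Cd36* has the largest gap between its circle and its square.

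*Tlr8* alone of the 10 had group means spread over more than 1 log2 unit. Among 9648 tested genes of at least 5 CPM, the 2 whose log2 CPM followed it most closely over the 15 libraries were *Arg1*, encoding arginase, and *H2-DMb1*, encoding a chain of the chaperone that loads MHC class II. Their root mean square differences from *Tlr8*, after centring, were 0.76 and 0.87 log2 units. *Arg1* had group means of 16.4, 14.3, 116 and 139 CPM and *H2-DMb1* of 3.62, 3.53, 22.6 and 23.9 CPM, in the order WT non-foamy and foamy, then Trem2-/- non-foamy and foamy. Unlike *Tlr8*, neither had a higher mean in WT foamy than in WT non-foamy libraries.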

How the data were processed

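The authors sequenced RNA from WT and Trem2-/- BV2 cells and deposited 1 table of raw read counts per gene and library, made in the CHURP pipeline with Trimmomatic, HISAT2 on GRCm38 and featureCounts. Which strand option was used, and what happened to multi-mapped reads, is not given in the sources used here. TMM factors of 0.918 to 1.11 scaled the libraries. Genes with enough counts by filterByExpr (minimum count 10) were kept, which left 14237 genes holding 99.97% of counts. The 15 libraries, grouped by their labels, entered 1 quasi-likelihood model with a mean for each group (edgeR 4.0.16, R 4.3.3, glmQLFit, then glmQLFTest), with p-values adjusted by the Benjamini-Hochberg method. The s.e. was worked out as the size of the printed log2 fold change divided by the root of its F statistic. The 95% intervals take this s.e. with a normal distribution, so they are somewhat narrower than the F test implies. The procedure was tested on simulated data. Fold changes compare groups in 5 comparisons. Exonic lengths, positions and shared stretches come from GENCODE M21 for GRCm38, and upstream windows from RefSeq.

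The genes, the pathway and marker lists and the tests were chosen with earlier results of these data known. Named besides the 10 genes were *Trem2*, of the pathway lists the 3 genes with the largest called change of at least 1 CPM per comparison and any gene of a list of 6 or fewer, and the 2 tested genes most like a receptor gene. *Ly86*, *Unc93b1*, *Slc15a4*, *Hsp90b1*, *Cd180*, *Traf6* and *Traf3* were named after their values were seen. The alternatives were DESeq2 1.42.0, other scaling, other filters, fewer libraries, a replicate block and a minimum fold change. Counting error alone limits low counts, and intervals cover no other source.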

Additional observations from a re-analysis of the deposited data

Results flagged for a closer look

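The response to cholesterol differed between the lines for 4 of the genes read here, by the test of the difference itself in edgeR. These were 1 of the 10 receptor genes and 3 of the 45 tested pathway genes, beside 3.64% of all genes. For *Cd14*, all WT foamy libraries were below all WT non-foamy ones, and all Trem2-/- foamy libraries were above all Trem2-/- non-foamy ones. The difference was 0.52 on the log2 scale (adjusted p = 0.000296). For *Cd36* the difference was 0.99 (adjusted p = 0.000141), and Trem2-/- foamy libraries were again above the non-foamy ones while WT foamy libraries were below. The fall of *Cd36* in WT cells was itself not called. It was called in 1 of 8 edgeR fits with a library left out (log2 fold change −0.404 to −0.276). For *Irak2* it was −0.44 (adjusted p = 0.0372) and for *Tnfaip3* −0.53 (adjusted p = 0.0416), in the other direction, and neither of these 2 calls held in every fit with a library left out.

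A single library stood apart from the other 3 of its group in 4 of 30 groups checked, where chance gives about 1 in 20. These were *Tlr2* in WT foamy replicate 4 (56.7 CPM, the highest), *Tlr6* in WT foamy replicate 2 (12.4 CPM, the lowest), *Tlr3* in WT non-foamy replicate 4 (0.357 CPM, the lowest) and *Ly96* in WT non-foamy replicate 3 (14.1 CPM, the highest). Of the 4 genes, *Tlr6* was called between the foamy lines with that library and not without it (adjusted p = 0.0370 and 0.150). The 3 Trem2-/- non-foamy libraries were too few for this check, which takes each gene alone. Trem2-/- foamy replicate 4, not flagged, was the highest of its group for *Tlr1*, *Tlr2*, *Tlr4*, *Tlr6*, *Tlr7*, *Tlr8* and *Ly96*, but not for *Tlr3*, *Tlr9* or *Cd14*. It had the lowest TMM factor (0.918) and the largest share of counts in mitochondrial genes (8.05%) of all libraries. Without it the foamy call of *Tlr6* was lost, and those of *Tlr4*, *Tlr7*, *Tlr8*, *Tlr9* and *Ly96* held.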

How the results depend on the processing

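Of the 884 values of the 10 genes under alternative settings, 831 kept their direction and their side of the threshold. Each call of *Cd14*, *Tlr4*, *Tlr7* and *Ly96* held in all alternatives but that of asking for a log2 fold change of 1 or more in size, and those of *Tlr8* held in every alternative that kept it (with at least 10 counts asked of every library it was not tested). That minimum left 0 of the 10 genes in the WT response, 1 (*Tlr8*) between the lines in each state and 0 in the difference between the responses. It left 0 pathway genes outside the 10 in any comparison, and 15, 1, 880, 409 and 45 of all genes in the WT response, the Trem2-/- response, the non-foamy lines, the foamy lines and the difference. DESeq2 called 881, 56 and 985 genes in the responses of WT and Trem2-/- cells and in their difference (edgeR 399, 20 and 518), 1 of the 10 in the Trem2-/- response and 4 and 5 pathway genes in the WT response and the difference. Without a filter, 607 and 61 genes were called in the responses of WT and Trem2-/- cells, and 2 pathway genes in the WT response. With only the groups compared, 144 genes and 0 pathway genes were called in the WT response, and with RLE factors 0 pathway genes. Total counts alone left 1 pathway gene in the difference, and the share of calls that were higher in Trem2-/- cells moved from 48.1% to 29.4% in non-foamy and from 47.4% to 23.3% in foamy cells; in the responses it moved from 59.4% to 41.8% (WT) and from 75% to 80% (Trem2-/-), and in the difference from 54.8% to 70.3%. The cause of these shifts was not tested.

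Same-numbered libraries showed no clear tendency to deviate together (correlation −0.105 to 0.143 over 21 pairs, 1 over 0.1). Of 15 libraries, 4 correlated best with their own number. In groups this small a weak pairing would not show, so whether the numbers pair libraries cannot be told. With a replicate block, 294 genes and 1 pathway gene were called in the difference, *Tlr6* was called between the non-foamy lines (0.28, adjusted p = 0.0393), and 2 uncalled values changed sign, *Tlr2* between the non-foamy lines (0.017) and *Tlr6* in the difference (−0.0034). *Tlr2* also changed sign with at least 10 counts in every library (0.0025).

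Leaving out 1 library gave 146 (without WT foamy replicate 2) to 526 genes in the WT response, 10 (without Trem2-/- non-foamy replicate 1) to 18 in the Trem2-/- response and 201 (without Trem2-/- non-foamy replicate 1) to 661 in the difference, and 0 to 2 and 1 to 4 pathway genes in the WT response and the difference. The values whose sign changed were small and not called: *Ly96* in the WT response (−0.0380 to 0.140), *Tlr3* (−0.346 to 0.0341) and *Tlr9* (−0.0838 to 0.154) in the same response, *Tlr1* (−0.0735 to 0.112) and *Tlr3* (−0.0239 to 0.280) in the Trem2-/- response, *Tlr2* between the non-foamy lines (−0.0384 to 0.0132), and *Tlr4* (−0.100 to 0.0310) and *Tlr6* (−0.0653 to 0.0950) in the difference. Depth limits *Tlr3* and, in WT cells, *Tlr8*, where a few reads set the values.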
